A study of Homo sapiens with 18 samples.

Results

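The cytosolic ribosomal proteins are the protein parts of the ribosomes that work outside mitochondria. Their genes were taken by symbol, as RPL or RPS followed by a number together with RPLP0, RPLP1, RPLP2 and RPSA, and kept when their value reached 1 in at least 3 of the 18 libraries. The symbols matched 82 genes of the 13358 listed, and 81 were kept, 49 of the large subunit and 32 of the small subunit, among 11110 genes of all kinds that passed the same filter. The gene left out was RPL39L, a copy of RPL39 known for its use in testis, which lay between 0 and 0.73 in every library. RPL6 stood in the table under a clone-based name and so fell outside the symbols. It is described apart.

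The RNA came from HUDEP1, an immortalised human erythroid progenitor line, in which the X-linked transcription factor GATA1 was present either as GATA1s, the short form without the N-terminal activation domain (clones 1KI9 and 1D5), or as the full-length protein (clone FL). Each clone was sampled at day 4 of differentiation and in expansion, with 3 libraries of poly(A) RNA per group. Both media held erythropoietin (3 U/mL), stem cell factor (50 ng/mL) and doxycycline (1 µg/mL). The day-4 medium added 2% FBS, 3% human AB serum, 10 µg/mL insulin, 3 U/mL heparin and 1 mg/mL holo-transferrin to IMDM. The expansion medium was SFEM II with 1 µM dexamethasone. Full-length GATA1 is represented by 1 clone, so in every comparison with FL the genotype and the clone cannot be told apart, and day 4 cannot be told apart from the change of medium. The labels do not say whether the 3 libraries of a group came from separate cultures, so p-values measure the spread between libraries, which may be technical.

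A ribosome reads an mRNA in its small subunit and joins amino acids in its large subunit, and each subunit needs its proteins in matched amounts. Most ribosomal protein mRNAs start with a C followed by a run of pyrimidines, the 5′ terminal oligopyrimidine or TOP motif, through which mTOR signalling and the RNA-binding protein LARP1 control their translation and stability. In humans, loss of a single copy of certain ribosomal protein genes causes Diamond-Blackfan anaemia, a failure of red cell production. Mutations that leave only GATA1s can cause a closely similar anaemia. Red cell precursors also stop making ribosomes as they mature, while globin mRNA comes to dominate the cell.

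All 11 erythroid markers examined were present in the table, among them KLF1 and ALAS2. Against FL at day 4, 10 of them passed as lower in 1KI9 and 1D5 alike and 1 as higher (limma, adjusted p under 0.05). The shares of all genes were 14.3% and 51.2%. The median log2 difference of the markers was -1.82, and -1.53 with equal library totals, where the counts were the same. In expansion 5 passed as lower and 1 as higher, against 8.98% and 17.5% of all genes, with a median of -0.29. Globins made up 12.9% ± 0.44 of the 1KI9 total, 19.8% ± 0.67 of the 1D5 total and 38.8% ± 0.59 of the FL total at day 4 (SD, n = 3 each), and 4.23% ± 0.27, 5.30% ± 1.33 and 7.30% ± 2.88 in expansion in the same order of clones. Mitochondrially encoded genes took 18.8% ± 0.48, 16.5% ± 0.52 and 9.05% ± 0.41 at day 4. Of 12 monocyte and neutrophil markers, 7 were in the table and their summed value was 407 to 430 in 1KI9, 334 to 356 in 1D5 and 44.4 to 48.3 in FL at day 4, and 222 to 265, 59.1 to 72.5 and 14.7 to 51.7 in expansion, with CSF1R and ELANE below 1 everywhere. Of 7 megakaryocyte markers, 3 were in the table and summed to 16.2 to 17.7 in 1KI9, 19.9 to 23.3 in 1D5 and 4.01 to 4.46 in FL at day 4. The part of these cell-state differences in the results below was not tested. GATA1 itself ran from 901 to 941 in 1KI9, from 1033 to 1102 in 1D5 and from 221 to 236 in FL at day 4, and gene-level values cannot show which form was made. In expansion, FL replicate 1 stood apart with 10.6% globins, against 5.55% and 5.73% in the other FL libraries. Expansion values are TPM, which are scaled by transcript length and by the library total. Day-4 values are on a TPM-like scale with a further scaling, so levels are compared between clones within a condition unless stated. The day-4 values of a library summed to 841363 ± 23313 in 1KI9, 899021 ± 40177 in 1D5 and 1065660 ± 18050 in FL (SD, n = 3 each), so differences from FL at day 4 depend on whether the deposited scale or equal totals are used. They are given on the deposited scale unless another is named. Read depth is unknown.

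The start sites of 66 of the 81 genes were found in the RefSeq promoter table (GRCh38.p14), and the bases around them show the TOP motif that most of the family shares. Each line below runs from 10 bases before the annotated start to 15 bases from it, 5′ to 3′ on the gene's strand. Capitals mark a C followed by at least 4 pyrimidines that begins within 5 bases of the start. The lines are a selection. The first 6 genes carry the run, 5 of them lower in both GATA1s clones at day 4 on the deposited scale and RPL10A not called. The other 4 do not carry it within 5 bases of any listed start. RPL9, RPL27 and RPS29, not shown, lack the run as well and were called lower. RPL19, not shown, carries the run and was not called.
RPS12 (chr6:132814559-132814583, + strand): cggatgaggCCTCTTTCCCTgccgc
RPL41 (chr12:56116623-56116647, + strand): cttcgCCTTTCTCTCggccttagcg
RPS27 (chr1:153990752-153990776, + strand): cgctttcgCTCCTTTCCggcggtga
RPS19 (chr19:41860245-41860269, + strand): ccccgtcgttCCCTTTCCCCTggct
RPL26 (chr17:8383179-8383203, - strand): gcgtgtagttCTCTTCCCTTTTgcg
RPL10A (chr6:35468391-35468415, + strand): aagacatgctagtCTCTTTTCCggt
RPL26L1 (chr5:172958719-172958743, + strand): tccaggggtcggcgaacgaaacgcg
RPL7L1 (chr6:42879606-42879630, + strand): gtgcggcgccgtagctaggagcgga
RPS26 (chr12:56041908-56041932, + strand): acataacctcgattttcttccgcca
RPS27L (chr15:63157463-63157487, - strand): gatgccgagcgcagatcgcttgcag

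A run of this kind lay within 5 bases of a listed start in 55 of the 66 genes, or 83.3%, against 25.2% of the 27305 genes in the promoter table. Counting only runs whose C lies exactly on a listed start, the shares were 71.2% of the 66 genes and 5.14% of all genes. The 11 genes without the run were RPL9, RPL15, RPL17, RPL26L1, RPL27, RPL7L1, RPS4X, RPS15, RPS26, RPS27L and RPS29. In RPS26 and RPL9 a C followed by at least 4 pyrimidines begins just beyond the limit of 5 bases. The grouping therefore depends on that limit and on the listed starts. The GATA motif, read as GATAA or GATAG after an A or a T, was searched on both strands of the 300 bases around each start, and 10 of the 66 genes held at least 1, or 15.2%, against 29.1% of all genes. RPS12, RPL26L1 and RPL19 were among the 10. The ETS sequence CCGGAAG was found in 24 of 66, or 36.4%, against 12.2%, and the YY1 sequence AAGATGGCG in 6 of 66, or 9.09%, against 2.14%. TATAAA was found in 9.09% against 14.0%, and the E-box CACGTG in 7.58% against 8.77%. All were searched on both strands, and a match of letters is not a bound site.

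The family as a whole took a smaller share of the non-globin RNA in both GATA1s clones than in FL at day 4. Its share of the library total was 14.8% ± 0.22 in 1KI9, 14.0% ± 0.52 in 1D5 and 14.8% ± 0.02 in FL (SD, n = 3 each). The 1KI9 libraries lay on both sides of the FL libraries, and all 1D5 libraries lay below them. With globins left out of the total, the shares were 17.0% ± 0.31 in 1KI9, 17.5% ± 0.79 in 1D5 and 24.1% ± 0.21 in FL, and no GATA1s library reached an FL library. With mitochondrially encoded genes left out as well, they were 21.7% ± 0.56, 22.1% ± 1.23 and 28.3% ± 0.23. In expansion the family held 19.3% ± 0.62 of the total in 1KI9, 20.4% ± 0.58 in 1D5 and 22.5% ± 1.03 in FL, with no overlap between the GATA1s and FL libraries. Without globins the expansion shares were 20.2% ± 0.61, 21.6% ± 0.61 and 24.3% ± 1.86 in the same order, also without overlap. Without globins and mitochondrially encoded genes they were 24.8% ± 0.11, 27.4% ± 0.72 and 29.4% ± 1.98, where 1D5 and FL overlapped. In bulk RNA, fewer cells of a type and less RNA per cell cannot be told apart.

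**Figure D1:**
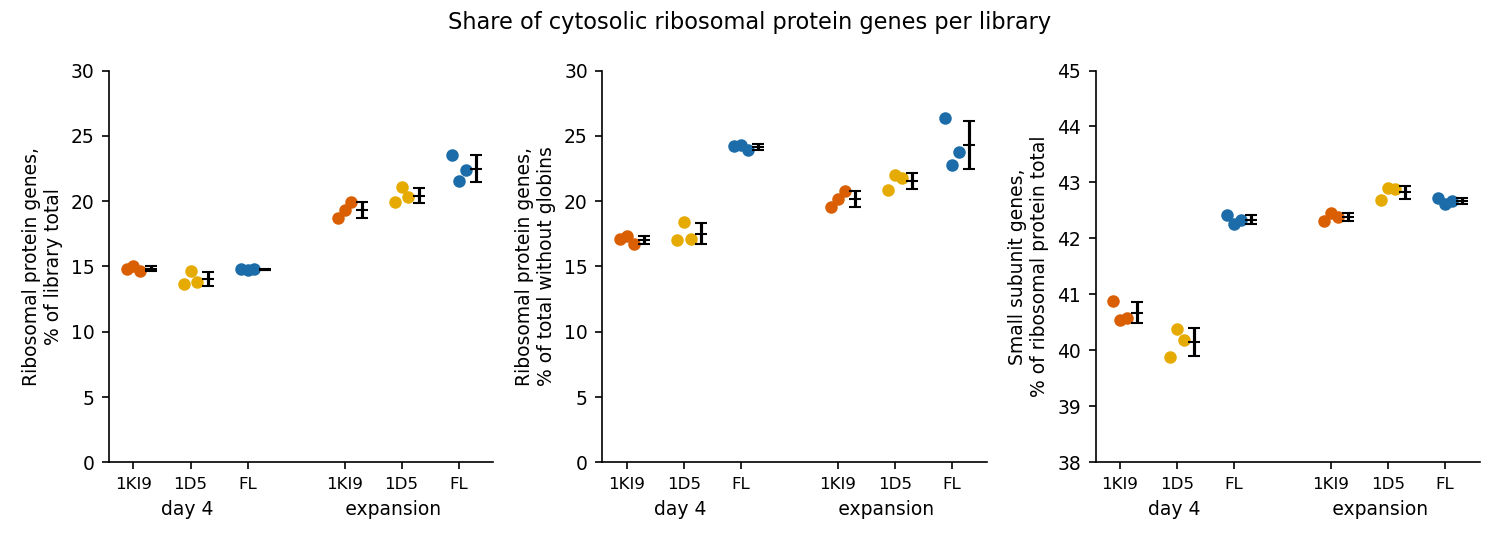
Share of the 81 ribosomal protein genes in each library (dots) with the group mean and SD (bars): percent of the library total (left), percent of the total without globins (middle) and the percent of the family total that comes from small-subunit genes (right, axis not starting at 0). At day 4 the share without globins was 17.0% and 17.5% in 1KI9 and 1D5 and 24.1% in FL, and the small-subunit part was 40.7%, 40.2% and 42.3%.

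At day 4 the ribosomal protein mRNAs lay below the bulk of other mRNAs in their difference from FL, and the lowest was RPS12, a protein of the beak of the small subunit. Whether they lay below FL itself depended on the scale. On the deposited scale, of the 81 genes, 57 were lower in both 1KI9 and 1D5 and 2 were higher, where a call needs an adjusted p under 0.05 in each clone with the same sign (limma, Benjamini-Hochberg over all genes). Over all 11083 genes tested, 14.3% were lower and 51.2% higher by the same rule. With median-of-ratios scaling, 78 of the 81 were lower and 0 higher, against 27.5% and 29.5% of all genes. With equal library totals, 12 were lower and 17 higher, against 7.93% and 69.0% of all genes. In deposited values, all 6 GATA1s libraries lay below all 3 FL libraries for 58 of the 81 genes, against 16.0% of all genes, and above them for 3, against 54.0%. The median log2 difference of the mean of both clones from FL was -0.31 over the family and 0.29 over all genes, a gap of -0.61. Other scalings of the libraries moved the median of all genes to 0.03 and the median of the family to -0.62 with median-of-ratios scaling, and to 0.55 and -0.018 with equal library totals. The gap lay between -0.57 and -0.65 under the 5 scalings tried. A scaling shifts all genes of a library nearly alike on the log2 scale, so the scalings are no separate tests of the gap. The lower calls on the deposited scale covered 25 of 32 small-subunit genes and 32 of 49 large-subunit genes.

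Among the small-subunit genes, RPS12 (ENSG00000112306.8, chr6:132814441-132817564 in GRCh38) had values of 2073, 2157 and 1985 in 1KI9 and 2064, 2422 and 2091 in 1D5, against 4099, 3956 and 4016 in FL. The highest GATA1s library was well below the lowest FL library. RPS12 thus differed by -0.92 ± 0.07 on the log2 scale (SE; adjusted p = 5.6e-10 in limma). RPS27, which binds zinc, had 3221, 3224 and 2860 in 1KI9, 3086, 3761 and 3217 in 1D5, and 4948, 4784 and 4635 in FL, a difference of -0.57 ± 0.07 (limma, adjusted p = 3.9e-07). The groups did not overlap for RPS12 or RPS27. RPS23, which helps the decoding site read codons accurately, had 2684, 2750 and 2523 in 1KI9, 2383, 2852 and 2531 in 1D5, and 3981, 3860 and 3818 in FL, with a difference of -0.57 ± 0.06 (limma, adjusted p = 7.6e-08). The small-subunit gene with the highest mean level in the family over all libraries, RPS18, did not pass, with 3605, 3668 and 3389 in 1KI9, 3117, 3655 and 3205 in 1D5, and 3635, 3532 and 3417 in FL. RPSA, also known as a laminin receptor, was lower in both clones, with 963 to 1041 in 1KI9, 912 to 994 in 1D5 and 1184 to 1207 in FL. The differences of RPS12, RPS27 and RPS23 with equal library totals were -0.63, -0.28 and -0.28, while RPSA was at 0.0052 and RPS18 at 0.25.

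Among the large-subunit genes, RPL41 (ENSG00000229117.9, chr12:56116586-56117943), whose coding sequence of 75 bases is the shortest in the family, had 2827, 3041 and 2676 in 1KI9, 3173, 3742 and 3265 in 1D5, and 4892, 4863 and 4842 in FL. Its log2 difference was -0.65 ± 0.07 (limma, adjusted p = 1.9e-07), and the groups did not overlap. RPL10 (chrX:154389955-154409168), which joins the subunit last and helps it mature in the cytoplasm, had 1750, 1787 and 1661 in 1KI9, 1816, 1994 and 1741 in 1D5, and 2736, 2678 and 2613 in FL, a difference of -0.58 ± 0.07 (limma, adjusted p = 6.5e-07). The stalk proteins, which recruit translation factors to the ribosome, were lower in both clones as well, RPLP0 by -0.40 ± 0.05, RPLP2 by -0.41 ± 0.06 and RPLP1 by -0.38 ± 0.06 on the log2 scale. The 5S particle proteins RPL5 and RPL11, which also bind MDM2 when ribosome assembly is disturbed, differed in their calls. RPL11 was lower in both clones, with 1165 to 1251 in 1KI9, 1225 to 1372 in 1D5 and 1536 to 1597 in FL. RPL5 passed in 1D5 alone, with 1232 to 1303 in 1KI9, 1157 to 1283 in 1D5 and 1323 to 1372 in FL, though whether the difference itself differs between RPL5 and RPL11 was not tested. Scaled to equal library totals, RPL41 was at -0.36 and RPL10 at -0.29, RPLP0, RPLP2 and RPLP1 at -0.11, -0.11 and -0.09, RPL11 at -0.05 and RPL5 at 0.16.

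The 2 genes higher in both clones at day 4 were RPL26L1 and RPL7L1, low-level copies of RPL26 and RPL7. RPL26L1 (ENSG00000037241.7, chr5:172958729-172969771) had 39.5, 39.7 and 35.6 in 1KI9, 34.3, 39.8 and 31.8 in 1D5, and 27.0, 25.1 and 25.7 in FL. All 6 GATA1s libraries exceeded the FL libraries, by 0.48 ± 0.07 on the log2 scale (limma, adjusted p = 2.4e-06). This difference was 0.19 with median-of-ratios scaling, where no gene was called higher in both clones, and 0.77 with equal library totals. RPL7L1, which takes part in making the large subunit in the nucleolus, had 70.0, 67.1 and 71.7 in 1KI9, 73.5, 69.0 and 67.7 in 1D5, and 59.6, 58.0 and 58.4 in FL, a difference of 0.25 ± 0.05 (limma, adjusted p = 0.000503) that turned to -0.057 (adjusted p = 0.302) with median-of-ratios scaling. RPS26, a small-subunit protein at the mRNA exit channel, had 336, 362 and 334 in 1KI9, 343, 388 and 347 in 1D5, and 309, 320 and 311 in FL, a difference of 0.17 ± 0.06 (limma, adjusted p = 0.0127) that passed in 1D5 alone and turned to -0.14 (adjusted p = 0.0441) with median-of-ratios scaling. Of these 3 differences, that of RPL26L1 lies above the all-gene median of 0.29 and those of RPL7L1 and RPS26 lie below it. RPL7L1 was at 0.54 and RPS26 at 0.46 with equal library totals.

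**Figure D2:**
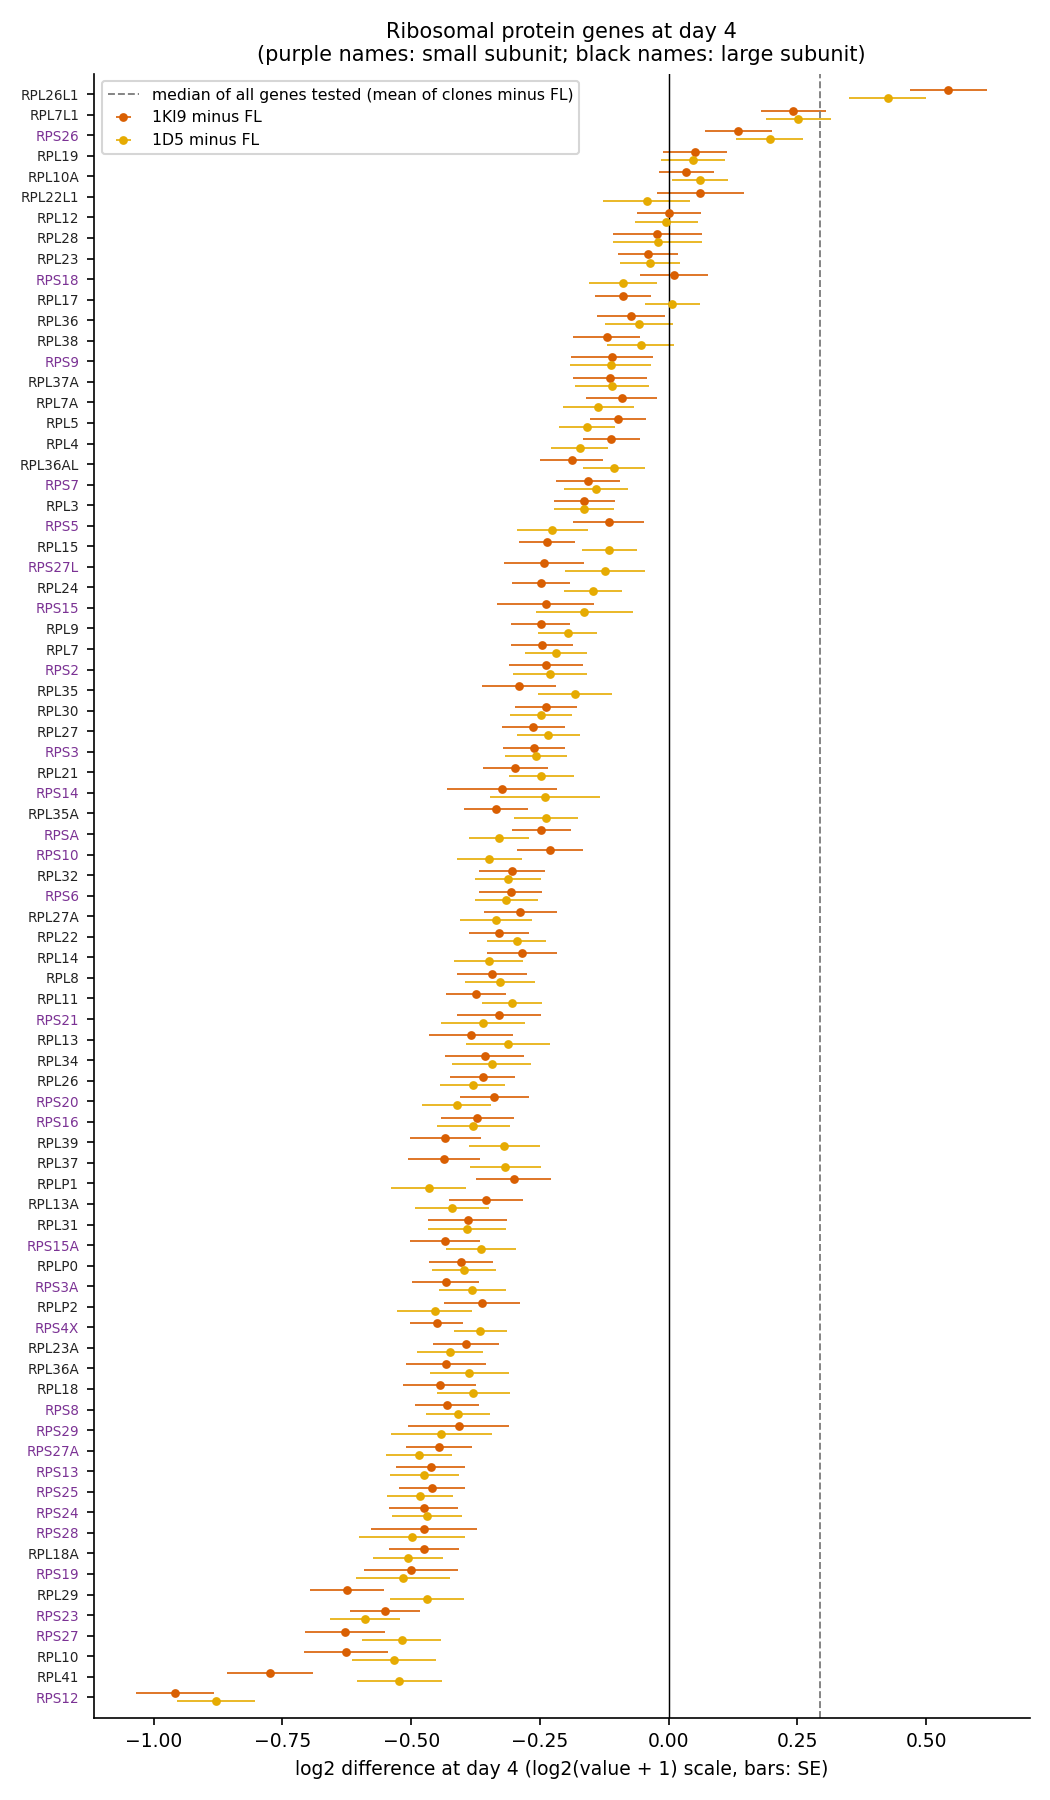
Log2 difference from FL at day 4 for 79 of the 81 genes in 1KI9 and in 1D5 (dots, bars SE), ordered by the mean of both clones, with the median of all genes tested at 0.29 as a dashed line. Values are on the deposited scale; with equal library totals the median of the family moves to -0.018. RPS12 lies lowest at -0.92 and RPL26L1 highest at 0.48, and RPL7L1 and RPS26, above 0 here, turn to -0.057 and -0.14 with median-of-ratios scaling.

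Within the family, the share of the small subunit was lower in the GATA1s clones at day 4. Small-subunit genes made up 40.7% ± 0.19 of the family total in 1KI9, 40.2% ± 0.25 in 1D5 and 42.3% ± 0.08 in FL (SD, n = 3 each), without overlap, and this ratio within a library does not depend on how the library was scaled. In expansion the shares were 42.4% ± 0.08, 42.8% ± 0.12 and 42.7% ± 0.05, with 1D5 and FL overlapping. The share is a sum of values, so genes of high level, such as RPS12, RPS27, RPS23 and RPS18, weigh most in it. After each library was centred on the mean log2 value of the family, 37 of the 81 genes stood apart from the family mean in both clones at day 4, against 78.2% of all genes. Of these, 18 were lower (7.25% of all genes), 12 of the small and 6 of the large subunit, and 19 were higher (71.0% of all genes), 4 of the small and 15 of the large subunit. Centring sets the mean of the 81 genes to 0 and leaves the median of all genes at 0.58. The shares of all genes are therefore not a like background for these counts. The median difference after centring was -0.09 over the small-subunit genes and 0.01 over the large-subunit genes. RPS12, RPS27 and RPS23 lay at -0.64, -0.29 and -0.29, and RPS18 at 0.24. The part of single genes in the lower small-subunit share was not tested. The spread of the 81 log2 differences was 0.21 at day 4 and 0.11 in expansion (SD over genes).

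Among the genes lowest against the family mean at day 4 were RPS12 at -0.64 ± 0.04, RPL41 at -0.37 ± 0.04 and RPL10 at -0.30 ± 0.05, all lower in both clones by the centred test. The highest were RPL26L1 at 0.77 ± 0.07, RPL7L1 at 0.53 ± 0.08, RPS26 at 0.45 ± 0.05 and RPL19 at 0.33 ± 0.04, all higher in both clones by that test. RPL19, which forms a bridge to the small subunit, did not pass in its own values, with 2392, 2443 and 2255 in 1KI9, 2240, 2588 and 2259 in 1D5, and 2366, 2329 and 2154 in FL. Its groups overlapped, and its difference of 0.05 became -0.26 with median-of-ratios scaling and 0.34 with equal library totals. RPL10A, which sits in the mobile L1 stalk, did not pass either, with 1315 to 1439 in 1KI9, 1357 to 1494 in 1D5 and 1324 to 1360 in FL, a difference of 0.05 that became -0.26 and 0.34 under the same scalings. The median difference against the family mean at day 4 was 0.10 over the 11 genes without a pyrimidine run within 5 bases of a listed start. It was -0.03 over the 55 with one. The ranges overlap, from -0.14 to 0.77 without the run and from -0.64 to 0.33 with it, and the 11 include RPL26L1, RPL7L1, RPS26 and RPS27L.

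**Figure D3:**
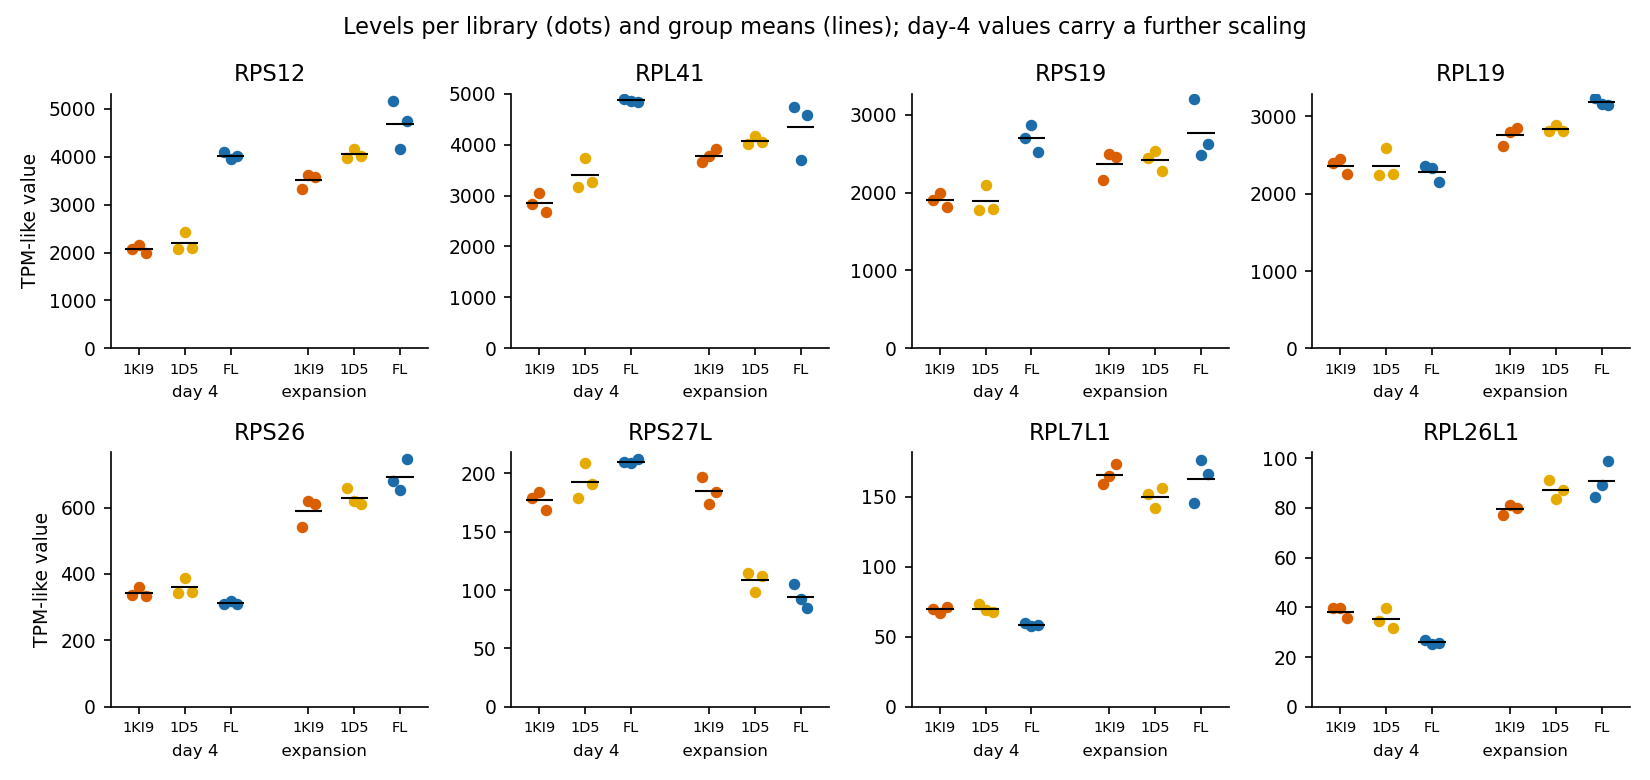
Value per library (dots) and group mean (lines) of 8 genes at day 4 and in expansion, each axis starting at 0. RPS12, RPL41 and RPS19 were lower in both GATA1s clones at day 4 (-0.63, -0.36 and -0.21 with equal library totals), RPL19 overlapped with FL, and RPS26, RPL7L1 and RPL26L1 lay above FL at day 4, though RPS26 and RPL7L1 turn to -0.14 and -0.057 on the log2 scale with median-of-ratios scaling. Among the expansion libraries RPS27L was highest in 1KI9, at 174 to 197.

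In expansion fewer genes were called lower in the GATA1s clones, and their number depended on the scale and on single libraries. Of the 81 genes, 20 passed as lower in both clones and 0 as higher, against 8.98% and 17.5% of the 11042 genes tested. The GATA1s libraries lay below all FL libraries for 45 genes, against 10.1% of all genes, and above them for 0, against 18.9%. The median log2 difference was -0.17 over the family and 0.06 over all genes. Taken singly, 63 genes were lower in 1KI9 (18.5% of all genes) and 20 in 1D5 (12.4%), so that every gene called in 1D5 was also called in 1KI9. The count of 20 moved with single libraries, to 5 without FL replicate 1, 6 without 1D5 replicate 1, 7 without 1D5 replicate 3 and 13 without 1KI9 replicate 2, and to 3 with only the groups compared. It was 6 with median-of-ratios scaling (12.1% of all genes), 37 with equal library totals (8.16%) and 49 with globins left out of the total (11.4%). At 6 of 81, or 7.41%, the share lay below that of all genes. At an unadjusted p under 0.05 in limma, 39 genes were lower and 1 higher in both clones, and the number higher was 0 or 1 under every alternative run.

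The largest falls called in expansion were those of RPLP1, RPL13, RPS12, RPL28, RPS2 and RPL14. RPLP1 (chr15:69452784-69456194), a stalk protein, had 2724, 3049 and 2763 in 1KI9, 3203, 3517 and 3109 in 1D5, and 4017, 3692 and 3691 in FL, a log2 difference of -0.32 ± 0.06 (limma, adjusted p = 0.000407). RPL13 had 1784, 2017 and 1953 in 1KI9, 2064, 2251 and 2137 in 1D5, and 2762, 2529 and 2297 in FL, a difference of -0.31 ± 0.07 (limma, adjusted p = 0.00121). Neither gene's groups overlapped, while FL replicate 1 was the highest library for both. RPS12 had 3330, 3626 and 3582 in 1KI9, 3978, 4162 and 4006 in 1D5, and 5162, 4153 and 4738 in FL, so that 1 library of 1D5 exceeded the lowest FL library, and its difference was -0.31 ± 0.07 (limma, adjusted p = 0.000733). RPL28 ran from 1202 to 1400 in 1KI9, from 1235 to 1411 in 1D5 and from 1519 to 1719 in FL. RPS2, which lies at the mRNA entry channel, ran from 3624 to 3877 in 1KI9, from 4033 to 4534 in 1D5 and from 4641 to 5068 in FL. RPL14 ran from 1404 to 1571 in 1KI9, from 1568 to 1620 in 1D5 and from 1785 to 1976 in FL. Of the 20 genes lower in both clones in expansion, 13 were also lower in both at day 4, which is 65.0% of the expansion list and 22.8% of the day-4 list, where 70.4% of the 81 genes were lower at day 4. Centred on the family mean, 1 gene stood apart in both clones in expansion, RPS27L, against 27.5% of all genes, which this centring does not place around 0. RPL36AL, RPS14 and RPL7L1 were next highest on that scale.

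The difference from FL changed between the conditions for 41 of the 81 genes (test of the interaction, limma), against 65.1% of all genes. It was lower at day 4 than in expansion for 32, against 19.7% of all genes, and higher for 9, against 45.4%. With median-of-ratios scaling these were 64 lower and 1 higher, against 32.0% and 29.3% of all genes. With equal library totals they were 5 lower and 41 higher, against 11.7% and 64.6% of all genes, so the direction of most of these changes depended on the scale. The falls were led by RPS27L, whose difference from FL was -0.18 ± 0.07 at day 4 and 0.59 ± 0.07 in expansion, an interaction of -0.77 ± 0.10 (adjusted p = 2.0e-06). These RPS27L values average both clones, which differed in expansion, at 0.97 in 1KI9 and 0.20 in 1D5. RPS12 followed with an interaction of -0.61 ± 0.09 (adjusted p = 1.9e-05), and RPL41 with -0.51 ± 0.10 (adjusted p = 0.000267). The gains were led by RPL26L1, at 0.60 ± 0.09 (adjusted p = 2.0e-05), RPS26, at 0.35 ± 0.08 (adjusted p = 0.000963), and RPL7L1, at 0.29 ± 0.08 (adjusted p = 0.00349). With median-of-ratios scaling RPS26 was at 0.093 (adjusted p = 0.358) and RPL7L1 at 0.035 (adjusted p = 0.676), and without globins RPL7L1 was at 0.17 (adjusted p = 0.0638), so these calls were lost. All 6 passed with the same sign with equal library totals, RPS12 at -0.32 and RPL41 at -0.22. In expansion none of the 3 genes with gains was called higher, with RPL26L1 at 77.2 to 81.1 in 1KI9, 83.7 to 91.0 in 1D5 and 84.3 to 98.8 in FL, and RPS26 at 542 to 619, 612 to 659 and 653 to 745 in the same order.

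**Figure D4:**
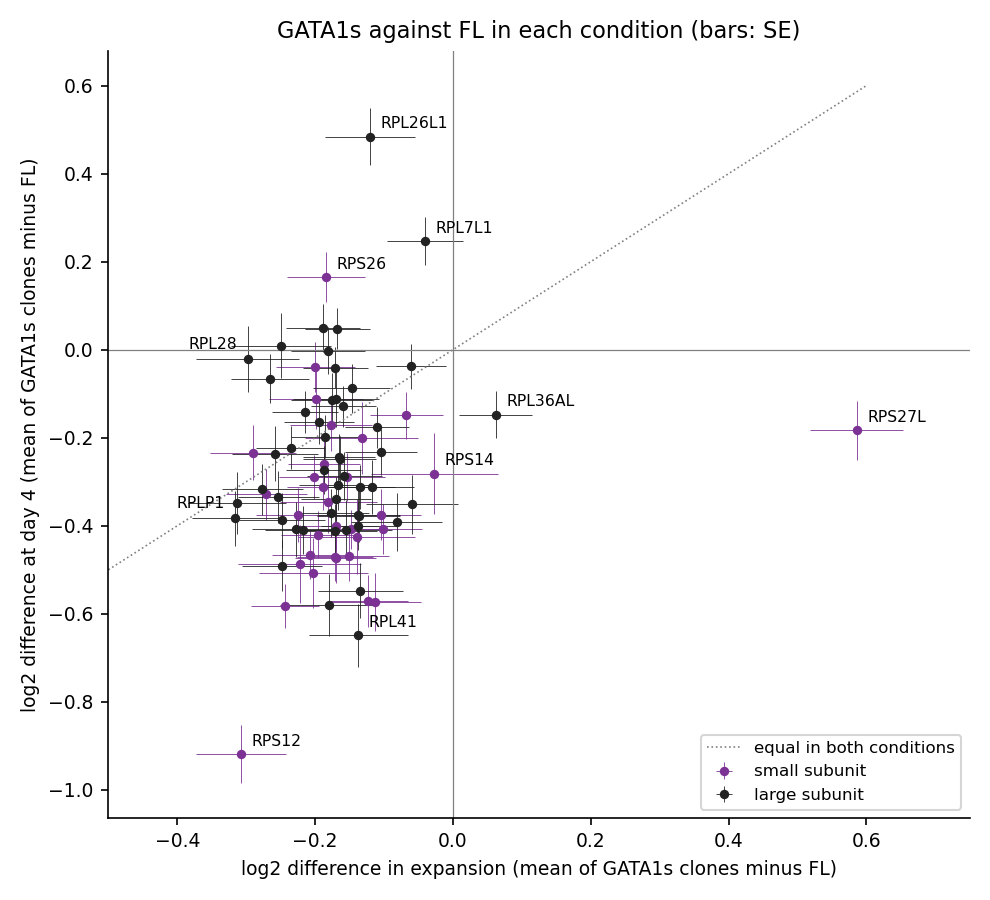
Log2 difference of the mean of both GATA1s clones from FL at day 4 (vertical) against that in expansion (horizontal) for the 81 genes, with SE bars and a dotted line of equal differences. Most genes lie below the line on the deposited scale, and 67 of the 81 have an interaction above 0 with equal library totals. RPS12 lies at -0.92 and -0.31, and RPS27L stands to the right at -0.18 and 0.59. In expansion RPS27L was at 0.97 in 1KI9 and 0.20 in 1D5. RPL7L1 and RPS26 lie above 0 at day 4 in this scaling and below it with median-of-ratios scaling.

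Among the copies of ribosomal protein genes, RPS27L differed most from FL, and in expansion. RPS27L, a copy of RPS27 known as a p53 target, had 197, 174 and 184 in 1KI9 in expansion, 115, 98.7 and 112 in 1D5 and 105, 92.2 and 85.1 in FL. Every 1KI9 library was above every other expansion library, and the log2 difference from FL was 0.97 ± 0.08 in 1KI9 (limma, adjusted p = 6.2e-09) and 0.20 ± 0.08 in 1D5 (limma, adjusted p = 0.0547). At day 4 its values were 179, 184 and 169 in 1KI9, 179, 209 and 191 in 1D5, and 209, 209 and 212 in FL. RPS27 itself did not pass in expansion, with 4075 to 4443 in 1KI9, 4131 to 4585 in 1D5 and 4401 to 4933 in FL. RPL22L1, which can replace RPL22 in mice, had 171 to 179 in 1KI9, 148 to 193 in 1D5 and 157 to 178 in FL at day 4, a difference of 0.01 ± 0.07 that became -0.30 with median-of-ratios scaling and -0.15 without globins. RPL22 was lower in both clones at day 4, with 334 to 362 in 1KI9, 337 to 383 in 1D5 and 415 to 463 in FL. RPL26, the parent of RPL26L1, had 2200 to 2371 in 1KI9, 2142 to 2510 in 1D5 and 2894 to 2981 in FL, and RPL7, the parent of RPL7L1, 2619 to 2829, 2663 to 3008 and 3148 to 3301 in the same order, both lower in both clones. RPL36AL had 291 to 323 in 1KI9, 303 to 359 in 1D5 and 346 to 355 in FL and did not pass in both clones, while its parent RPL36A, on the X chromosome, was lower in both, with 1454 to 1554, 1443 to 1759 and 1994 to 2063. The day-4 differences with equal library totals were 0.11 for RPS27L, 0.30 for RPL22L1, -0.02 for RPL22, -0.08 for RPL26, 0.06 for RPL7, 0.15 for RPL36AL and -0.12 for RPL36A.

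Most genes mutated in Diamond-Blackfan anaemia were lower in both clones at day 4 on the deposited scale, which did not hold with equal library totals. Of the 20 on the list, 17 were lower and 0 higher in limma (18 and 0 at an unadjusted p under 0.05), and the median difference was -0.33, beside -0.31 over the family, where 14.3% of all genes were lower. Of the 81 genes of the family 57 were lower, or 70.4%, so most of the family was lower as well. With median-of-ratios scaling 19 were lower and 0 higher, against 27.5% and 29.5% of all genes and 96.3% and 0% of the family. With equal library totals 2 were lower and 2 higher, where the shares of all genes are those given above for day 4. In expansion 2 were lower, RPL5 and RPL9, and 0 higher (6 and 0 unadjusted), against 8.98% and 17.5% of all genes, and the median was -0.17. The number lower in expansion was 0 with median-of-ratios scaling and without globins and mitochondrial genes, 7 with equal library totals and 12 without globins. The share of all genes lower was 12.1% with median-of-ratios scaling. The shares with equal library totals and without globins are those given above for expansion. The share without globins and mitochondrial genes is not given here. RPS19 (ENSG00000105372.7, chr19:41859918-41872926), the gene most often mutated in the disease, had 1903, 1994 and 1818 in 1KI9, 1782, 2099 and 1787 in 1D5, and 2700, 2867 and 2522 in FL at day 4. The groups did not overlap, and the difference was -0.51 ± 0.08 (limma, adjusted p = 1.3e-05). In expansion RPS19 had 2168, 2492 and 2461 in 1KI9, 2443, 2539 and 2275 in 1D5, and 3202, 2483 and 2626 in FL, with overlap, and 1D5 did not pass (limma, adjusted p = 0.128). RPS28 and RPS24 lay at -0.49 ± 0.09 and -0.47 ± 0.06 at day 4 and RPS27 and RPL11 at -0.57 and -0.34, with RPS29, RPL18, RPS15A and RPL31 between -0.42 and -0.39 and all called. RPL26, RPL35A, RPS10, RPL27, RPL35, RPL9 and RPS7 lay between -0.37 and -0.15 and were also called. The 3 not called in both clones at day 4 were RPL5, RPL15 and RPS26.

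The number of ribosomal protein genes that differed between the GATA1s clones depended on the scale. In expansion 6 genes differed between 1KI9 and 1D5, against 40.6% of all genes, with RPS27L higher in 1KI9 by 0.76 ± 0.08 on the log2 scale (limma, adjusted p = 4.7e-07). 1KI9 was higher for 33.4% and lower for 7.16% of all genes. The other five were lower in 1KI9, led by RPS12 at -0.21 ± 0.08, RPLP1 at -0.20 ± 0.07 and RPL35 at -0.20 ± 0.07, with adjusted p of 0.0381, 0.0338 and 0.0354 in limma. At day 4 1 gene differed, against 19.2% of all genes. This was RPL41, lower in 1KI9 (6.69% of all genes were lower) by -0.25 ± 0.08 (limma, adjusted p = 0.0415). The call of RPL41 was lost without 1D5 replicate 2 or 3 or 1KI9 replicate 1 or 3. In expansion 33 genes differed with median-of-ratios scaling. Of the 81 genes, 32 were lower and 1 higher in 1KI9 (39.5% and 1.23%), against 17.7% and 24.1% of all genes. The count was 34 without globins and mitochondrial genes, 33 of them lower in 1KI9, and 10 with equal library totals. At day 4, 12 differed with equal library totals. The shares of all genes beside the counts of 34, 10 and 12 are not given here.

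Set against expansion, day 4 showed lower values of nearly all ribosomal protein genes within each clone on a common total. After each library was rescaled to 1 total over shared genes, 71 of the 81 genes were lower and 0 higher at day 4 in 1KI9 (41.6% and 29.3% of all genes; 0 higher also at an unadjusted p under 0.05 in limma), 75 lower and 2 higher in 1D5 (42.6% and 34.8%), and 75 lower and 1 higher in FL (61.9% and 22.2%). The median log2 difference was -0.36 in 1KI9, -0.52 in 1D5 and -0.62 in FL, where the medians of all genes were -0.09, -0.08 and -0.52. The family thus lay below the median of all genes by -0.27 in 1KI9, -0.44 in 1D5 and -0.10 in FL. With median-of-ratios scaling the FL count turned to 21 lower and 28 higher and the FL median to 0.07, while 1KI9 and 1D5 kept medians of -0.21 and -0.36.

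**Figure D5:**
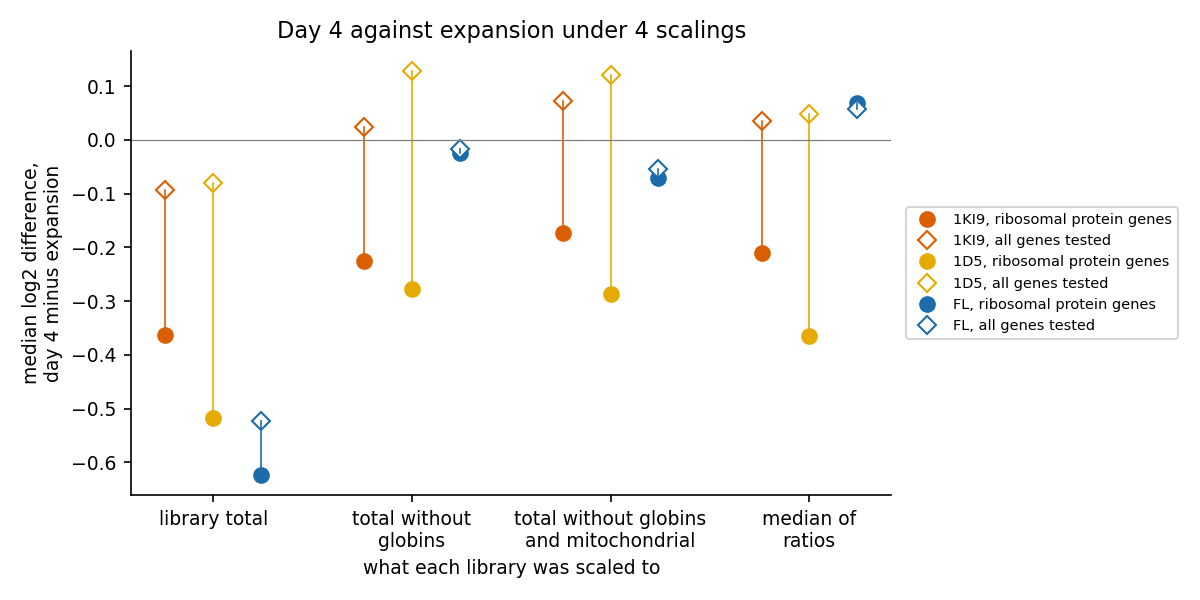
Median log2 difference of day 4 from expansion over the 81 ribosomal protein genes (filled) and over all genes tested (open), for each clone under 4 scalings of the libraries. In 1KI9 and 1D5 the family lies below all genes under each scaling, and in FL the gap is -0.10 with the library total and between -0.02 and 0.01 under the other three. A scaling shifts all genes of a library nearly alike on the log2 scale, so the 4 scalings are no separate tests of the gap.

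Copies of ribosomal protein genes were among those that differed most. RPL22L1 fell most in each clone, with log2 differences of -1.33 in 1KI9, -1.65 in 1D5 and -2.04 in FL, with deposited values of 171 to 179 at day 4 and 475 to 515 in expansion in 1KI9, and 157 to 178 at day 4 and 585 to 677 in expansion in FL. RPL26L1 lay at -1.21 in 1D5 and -1.93 in FL, and RPL7L1 at -1.07 in 1KI9 and -1.62 in FL. RPLP1 lay at -0.92 in 1KI9 and at -1.38 in both 1D5 and FL, and all of these passed. RPS27L rose at day 4 by 0.90 ± 0.07 in 1D5 and 0.99 ± 0.07 in FL, and its difference in 1KI9, where expansion values were already high, was 0.11 ± 0.07. RPL36AL differed by 0.14 ± 0.05 in 1D5 (limma, adjusted p = 0.021), a call lost with values as deposited and without 1D5 expansion replicate 1 or 1D5 day-4 replicate 2 or 3. The 5 genes not called in FL were RPL10, RPL36AL, RPL41, RPS14 and RPS27.

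Levels within the family spanned a wide range on the per-length scale. Averaged over all 18 libraries, the highest included RPS18 at 4253, RPS27 at 4088, RPL4 at 3898 and RPL41 at 3884, and the lowest were RPL22L1 at 362, RPL36AL at 324, RPS27L at 161, RPL7L1 at 113 and RPL26L1 at 59.5. These averages pool both scales and hide differences between groups, since in FL at day 4 RPL41 (4842 to 4892) and RPS27 (4635 to 4948) lay above RPS18 (3417 to 3635). Across the 81 genes, the difference against the family mean at day 4 had a Spearman rho of -0.28 with mean level, -0.10 with the number of pseudogenes named after the gene and 0.15 with coding length, as descriptions over genes that share libraries. Ribosomal protein genes have many near-identical pseudogenes, and reads divided among them make single values uncertain.

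Of the ribosome proteins outside the symbols, some were called lower at day 4 on the deposited scale. FAU, which encodes RPS30 fused to a ubiquitin-like protein, and RACK1, a scaffold on the small subunit, were lower in both clones at day 4, by -0.26 and -0.21 on the log2 scale, which became 0.04 and 0.08 with equal library totals. FAU ran from 652 to 776 in 1KI9, from 723 to 856 in 1D5 and from 825 to 930 in FL at day 4, so 1D5 and FL overlapped. The groups of RACK1 did not overlap. In expansion RACK1 was called, at -0.21, and FAU was not. RPL6 was called in neither condition, with 1365 to 1451 in 1KI9, 1347 to 1503 in 1D5 and 1480 to 1528 in FL at day 4, and 1881 to 2052, 1977 to 2101 and 2204 to 2257 in expansion. Its day-4 difference of -0.10 was called lower in both clones at -0.41 with median-of-ratios scaling and higher in both at 0.19 with equal library totals.

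The direction of assembly partners of ribosomal proteins at day 4 depended on the scale, and several were lower in expansion. Of 12 chaperones and assembly partners, 7 were higher and 1 lower in both clones at day 4, or 58.3% and 8.33%, near the 51.2% and 14.3% of all genes. In expansion 5 were lower and 0 higher (5 and 1 at an unadjusted p under 0.05 in limma), against 8.98% and 17.5% of all genes. The medians were 0.28 at day 4 and -0.18 in expansion. With median-of-ratios scaling, 2 were higher and 5 lower at day 4, against 29.5% and 27.5% of all genes, and the median was -0.02. With equal library totals 10 were higher and 0 lower, against 69.0% and 7.93% of all genes. LTV1, an assembly factor of the small subunit that binds RPS3, had 67.8 to 70.3 in 1KI9, 52.0 to 53.3 in 1D5 and 20.4 to 21.9 in FL at day 4, a difference of 1.46 that was 1.17 with median-of-ratios scaling. RRS1 and RPF2, which bring the 5S particle of RPL5 and RPL11 into the large subunit, were higher at day 4 by 0.34 and 0.35, which became 0.04 and 0.06 with median-of-ratios scaling, and lower in expansion by -0.46 and -0.35. TSR2, the chaperone of RPS26 in which mutations cause Diamond-Blackfan anaemia, had 13.8 to 14.0 in 1KI9, 14.9 to 15.7 in 1D5 and 13.9 to 14.9 in FL and was not called.

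Other mRNAs with TOP motifs, mainly those of translation factors, also moved with the scale at day 4. Of 19, 9 were lower and 2 higher in both clones at day 4, against 14.3% and 51.2% of all genes, with a median of -0.11. In expansion 7 were lower and 0 higher (the same counts at an unadjusted p under 0.05 in limma), with a median of -0.12. The shares of all genes there were 8.98% and 17.5%. At day 4, 15 were lower and 1 higher with median-of-ratios scaling, against 27.5% and 29.5% of all genes. The counts were 12 and 2 without globins, and 2 and 10 with equal library totals. The shares of all genes with equal library totals are those given above for day 4, and those without globins are not given here. TPT1 was lower at day 4 by -0.38 and PABPC1, the poly(A)-binding protein, by -0.22 (-0.08 and 0.07 with equal library totals), while NPM1, a nucleolar protein, and IMPDH2, an enzyme of guanine nucleotide synthesis, were higher by 0.49 and 0.55. With median-of-ratios scaling NPM1 and IMPDH2 were at 0.18 and 0.24, and 1 of the 19 was called higher. Of 8 regulators of TOP mRNAs, 4 were lower and 3 higher at day 4, or 50% and 37.5%, against 14.3% and 51.2% of all genes. With equal library totals 1 was lower and 4 were higher. LARP1, the TOP-binding protein, was lower in both clones in both conditions, with 101 to 109 in 1KI9, 101 to 114 in 1D5 and 126 to 131 in FL at day 4, and 122 to 145, 122 to 135 and 155 to 164 in expansion. Its day-4 difference became 0.03 with equal library totals. EIF4EBP2 was lower at day 4, with 17.4 to 18.6 in 1KI9, 15.5 to 17.8 in 1D5 and 34.7 to 37.5 in FL. EIF4EBP1, its relative among the repressors of cap-dependent translation, was higher, with 51.3 to 59.3 in 1KI9, 70.7 to 83.0 in 1D5 and 38.8 to 41.8 in FL. MTOR and RPTOR, the kinase and its scaffold, were higher by 0.46 and 0.48, and by 0.18 and 0.21 with median-of-ratios scaling. With that scaling 1 of the 8 regulators was called higher in both clones.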

How the data were processed

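Poly(A) RNA of 18 libraries was analysed from 1 deposited table. The submitters' processing notes name Trim Galore 0.60, STAR 2.7 and RSEM 1.31, with hg38 (GRCh38.p12). The expansion values deposited by the authors are TPM. The day-4 values deposited by the authors are a TPM-like signal with library sums above those of TPM in FL, so a further scaling was applied, which the sources used here do not give. The planned test had assumed TPM throughout and was kept. Values entered as log2(value + 1), a scale that shrinks changes of low genes, for genes at 1 or more in 3 libraries, leaving out 68 genes listed at 0 throughout expansion and 27 throughout day 4 where that condition was used. A model with 6 group means was fitted to all genes with limma 3.58.1 (R 4.3.3) with a variance trend, at a Benjamini-Hochberg adjusted p of 0.05. It was tested on simulated data. Members and lists were chosen with earlier results of these data known. Genes named are paralogues with parents, Diamond-Blackfan genes, the 6 largest changes called in both clones, the 4 highest and lowest against the family mean, the 3 largest interactions each way, the 5 highest and lowest levels, the 4 largest clone differences and the 3 largest changes at day 4. RPSA, the stalk genes, RPL10A and the genes named from the lists were chosen after their values were seen. Some genes are not reported here. Gene coordinates are from GENCODE 29 and sequences from RefSeq. Alternatives were other scalings (median of ratios, totals without globins, values as deposited), no filter, another pseudocount, only the groups compared, a replicate block and leaving out each library. Equal library totals within a condition, a scaling without globins and mitochondrial genes, and the list counts under each scaling, were added after seeing the data.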

Additional observations from a re-analysis of the deposited data

Results flagged for a closer look

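The difference between the GATA1s clones and FL depended on the condition for 41 of the 81 ribosomal protein genes by a test of the interaction in limma at an adjusted p of 0.05, where 65.1% of all genes passed. The largest of these were the interactions on the log2 scale of RPL26L1 at 0.60, RPS26 at 0.35 and RPL7L1 at 0.29, whose difference from FL was higher at day 4 than in expansion, and of RPS27L at -0.77, RPS12 at -0.61 and RPL41 at -0.51, whose difference was lower at day 4. The RPS27L value averages clones that differed in expansion, at 0.97 from FL in 1KI9 and 0.20 in 1D5. With median-of-ratios scaling RPS26 at 0.093 (adjusted p = 0.358 in limma) and RPL7L1 at 0.035 (adjusted p = 0.676) did not pass. The counts in each direction, 32 lower and 9 higher, became 64 and 1 with that scaling and 5 and 41 with equal library totals. Globin and mitochondrial shares differed between the clones by condition as well, and their part in these interactions was not tested.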

How the results depend on the processing

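The count of genes lower in both clones at day 4, 57, fell to 12 with equal library totals, lay between 56 and 78 under the other settings and between 53 and 61 with each library left out. Equal library totals, chosen after seeing the data, also gave 17 higher, 12 clone differences and a median of -0.018 at day 4, and 37 lower, 1 higher and 10 clone differences in expansion. Read depth is unknown, so counting error cannot be given. Of 265 alternative values of the main counts and medians, 207 held and 58 moved. A value that held could still differ, as 78 lower at day 4 with median-of-ratios scaling, against 57, counted as held. So did 56 interactions without globins and 28 without FL expansion replicate 2, against 41. The 46 interactions with equal library totals also counted as held, though most were higher there and most were lower on the deposited scale. With median-of-ratios scaling, the expansion count lower became 6, clone differences in expansion 33, the day-4 count higher 0, the day-4 median -0.62, interactions 65, day 4 against expansion in FL 21 lower and 28 higher, and in 1KI9 43 lower and 3 higher. With globins left out of the total there were 49 lower in expansion, 11 and 2 clone differences in expansion and at day 4, 1 higher and a median of -0.47 at day 4, 31 lower and 22 higher in FL, and 3 higher in 1KI9. With mitochondrial genes left out too, chosen after seeing the data, there were 11 lower and 1 higher and 34 clone differences in expansion, 35 lower and 17 higher in FL, and 47 lower and 5 higher in 1KI9. Without the filter, 13 were lower in expansion and 0 differed between clones at day 4. With only the groups compared, 3 were lower in expansion, 0 stood apart from the family mean in expansion and 0 differed between clones at day 4. The interaction uses all groups, so it has no such alternative, and the family-centred tests have no scaling alternative. With values as deposited, 3 were higher at day 4 than in expansion in FL and 1 in 1D5. The cause was not tested. Leaving out each library gave 5 to 21 lower and 0 to 1 higher in expansion, 1 to 5 clone differences in expansion and 0 to 1 at day 4, 1 to 3 apart from the family mean in expansion and 33 to 39 at day 4, 28 to 48 interactions, and higher at day 4 than in expansion 1 to 2 genes in 1D5, 0 to 1 in 1KI9 and 1 to 2 in FL. The 6 clone differences in expansion fell to 1 without 1D5 replicate 2 or 1KI9 replicate 1 and to 2 without 1KI9 replicate 3. The clone difference of RPL41 at day 4 was lost without 1D5 replicate 2, 1D5 replicate 3, 1KI9 replicate 1 or 1KI9 replicate 3. The genes apart from the family mean in expansion became 3 without FL replicate 2 and 2 without FL replicate 3. Among named genes, 15 differences at day 4 reversed, with median-of-ratios scaling RPL7L1 at -0.057, RPL22L1 at -0.30 and RPS26 at -0.14, without globins RPL22L1 at -0.15, and with equal library totals RPL36AL at 0.15, RPS27L at 0.11, RPL7 at 0.061, RPL5 at 0.16, RPL35A at 0.0064, RPS10 at 0.0038, RPS7 at 0.14, RPL15 at 0.12, RPL27 at 0.045, RPL35 at 0.057 and RPL9 at 0.071. Of 1615 values for named genes, 83 were weaker, 16 stronger and 1495 held. Deviations from the group mean correlated above 0.1 in 6 of 18 pairs of same-numbered libraries of different groups (-0.15 to 0.43). Between 1D5 and 1KI9 at day 4 these correlations were -0.03, 0.43 and 0.27, against -0.39 to 0.25 for pairs of unlike number. The numbers were not taken as pairing, though this check cannot exclude it. With the replicate number as a block, 17 were lower in expansion and 56 at day 4, 39 had an interaction, and 0 differed between clones at day 4.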
